A study of Camelus dromedarius with 10 samples.

Results

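COL1A1, COL3A1 and ADAMTS2 make up a small group of genes for fibrillar collagen and its processing, followed here in the supraoptic nucleus (SON) of the dromedary camel. The members were the 3 of 22444 gene IDs in the count table that the study's gene tables pair with these symbols: ENSCDRG00005012316 for COL1A1, ENSCDRG00005010161 for COL3A1 and ENSCDRG00005005953 for ADAMTS2. They were picked because their counts in these same libraries were lower after water deprivation (WD), so their WD values are given as a description, without a test.

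All animals were male dromedaries aged 4 to 5 years, 5 per group, fed alfalfa hay on a ranch. Control camels drank freely, whereas WD camels had feed but no water for 20 days. Each library came from micropunches of the rostral SON, and total RNA was depleted of ribosomal RNA and sequenced. Libraries keep the study's names, CON2, CON3, CON4, CON5 and CON13 for control and WD6, WD7, WD8, WD9 and WD15 for WD.

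Fibrillar collagens are the rope-like proteins of connective tissue. COL1A1 encodes the alpha 1 chain of type I collagen, and COL3A1 encodes the only chain of type III collagen, which is common in vessel walls. Both are made as procollagens, and ADAMTS2 is a secreted metalloproteinase that cuts off their N-terminal propeptide so that fibrils can form. In the brain, fibrillar collagen is known mainly from the meninges and from the sheaths around larger vessels, where fibroblasts and smooth muscle cells make it.

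For the 2 collagens the study also designed qRT-PCR primers, shown because they mark the stretches of camel transcript by which these genes can be followed. Each has 20 bases and is written 5′ to 3′. The qRT-PCR data were not analysed here. The paper reports that its qRT-PCR in the rostral SON did not bear out the WD difference of COL1A1 or COL3A1.
COL1A1 forward: agaacatccgcagtcctgaa
COL1A1 reverse: ttggttggggtcaatccagt
COL3A1 forward: tgaggctgatggggtcaaat
COL3A1 reverse: ttccccagtgtgtttagtgc

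The libraries held between 1665098 and 8126641 counts. A few dominant genes took much of this, as 5 IDs, each above 1% of at least 1 library, held between 27.7% and 76.1% of the counts. Outside them CON13 kept 397495 counts and WD6 kept 1106575, the smallest numbers, against up to 5872137 in WD9. Levels are given in CPM, counts scaled to a common library size after TMM normalisation, on which scale 1 count was worth 1.20 CPM in CON13. The hypothalamic transcription factors SIM1 and OTP were present in both groups, SIM1 at 71.0 CPM in control and 68.8 CPM in WD, and OTP at 39.5 and 25.7 CPM. PDYN, the prodynorphin gene of magnocellular neurones, rose from 162 to 618 CPM in WD with a log2 fold change (LFC) of 1.93 (edgeR quasi-likelihood test, Benjamini-Hochberg adjusted p = 0.000302). VGF, a secreted neuropeptide precursor, rose to 801 CPM in WD, an LFC of 3.99 (edgeR adjusted p = 3.85e-05). AVP and OXT were not analysed here.

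COL1A1 was lower in WD. In control it measured 49.3 CPM in CON2, 30.5 in CON3, 47.2 in CON4, 49.2 in CON5 and 50.2 in CON13. In WD it measured 30.4 CPM in WD6, 16.2 in WD7, 22.0 in WD8, 19.2 in WD9 and 24.0 in WD15. The groups did not overlap, but only just, since CON3 lay next to WD6 and apart from the other control libraries. Controls averaged 45.3 CPM ± 8.33 (SD, n = 5), compared with 22.3 CPM ± 5.36 (SD, n = 5) for WD. The LFC was -1.04 with an SE of 0.207, or 48.7% of the control level. The counting interval of CON3 ran from 25.5 to 36.3 CPM (129 counts) and that of WD6 from 23.4 to 38.8 CPM (64 counts), so the order of these libraries was not detectable at their depth. These 95% Poisson intervals cover counting error only.

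COL3A1 followed with a slightly smaller difference. The control values were 46.5 CPM in CON2, 32.9 in CON3, 37.8 in CON4, 48.2 in CON5 and 44.2 in CON13. The WD values were 25.6 CPM in WD6, 22.2 in WD7, 30.6 in WD8, 22.3 in WD9 and 14.6 in WD15. Again no WD library reached a control library, with WD8 the highest of one group beside CON3 as the lowest of the other. Controls averaged 41.9 CPM ± 6.42 (SD, n = 5) and WD 23.1 CPM ± 5.84 (SD, n = 5). The LFC was -0.86 with an SE of 0.206, or 55.1% of control. Fewer cells that make collagen and less collagen RNA per cell cannot be told apart in bulk tissue, here or in the results that follow.

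ADAMTS2 stood furthest apart. In control it reached 19.9 CPM in CON2, 31.2 in CON3, 39.8 in CON4, 26.8 in CON5 and 67.0 in CON13. In WD it fell to 11.9 CPM in WD6, 12.4 in WD7, 7.68 in WD8, 6.74 in WD9 and 4.17 in WD15. The highest WD value was below the lowest control value, while levels inside each group spread widely. Controls averaged 36.9 CPM ± 18.3 (SD, n = 5) and WD 8.56 CPM ± 3.49 (SD, n = 5). The LFC was -2.06 with an SE of 0.328, or 24.0% of control. Ordered from the lowest LFC over 14432 genes tested, ADAMTS2 was number 10, COL1A1 number 281 and COL3A1 number 494. CON13, the shallowest library, carried the highest ADAMTS2 level on 56 counts, and without it the LFC was -1.82.

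**Figure D1:**
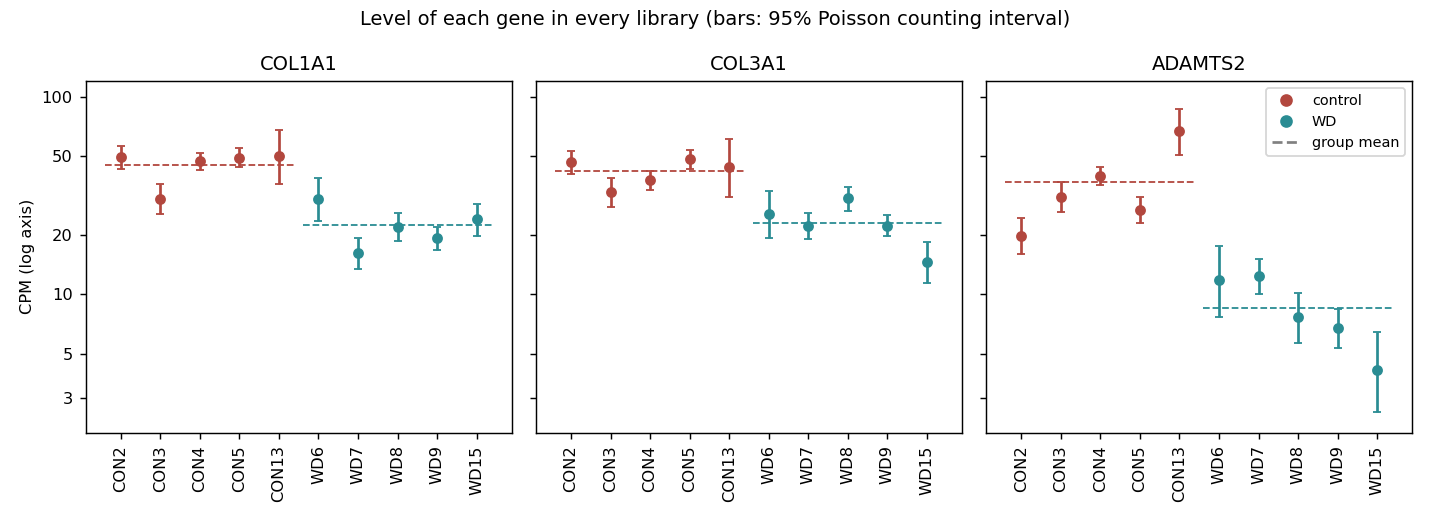
CPM on a log axis for COL1A1, COL3A1 and ADAMTS2 in each of the 10 libraries, control in red and WD in turquoise. Points are library values, bars the 95% Poisson counting interval and dashed lines the group means. No WD point lies above a control point in any panel, with CON3 at 30.5 and WD6 at 30.4 CPM nearly level for COL1A1.

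By the edgeR test COL1A1 and ADAMTS2, 2 of the 3 members, were among the genes called lower at an adjusted p of at most 0.05, a call made for 33 genes or 0.229% of those tested. DESeq2 called all 3 lower, beside 0.632% of its tested genes. All 3 were among the 184 genes, 1.27% of those tested, in which every WD library lay below every control library. These counts restate how the members were chosen. They are no test of the members. With 1 library left out COL1A1 kept its edgeR call only without CON3 or without WD6, and its LFC was between -1.07 and -0.95 without CON2, CON4, CON5, CON13, WD7, WD8, WD9 or WD15.

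The difference was also read within depth groups, where the few libraries allow no test. In the 5 shallower libraries by counts beyond the dominant IDs (CON2, CON3, CON13, WD6 and WD15), the mean log2 CPM of COL1A1 in WD minus that in control was -0.65. In the deeper libraries (CON4, CON5, WD7, WD8 and WD9) it was -1.34. For COL3A1 the corresponding differences were -1.07 and -0.78, and for ADAMTS2 they were -2.28 and -1.91. The direction was the same in both depth groups for each gene. Without CON13 and WD6 the LFC was -1.14 for COL1A1, -0.90 for COL3A1 and -1.93 for ADAMTS2.

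Inside a library the 2 collagens can be set against each other without scaling. The counts of COL1A1 and COL3A1 were close, although without transcript lengths this says nothing of their molar amounts. COL1A1 took 51.5% of their joint counts in CON2, 48.1% in CON3, 55.5% in CON4, 50.5% in CON5 and 53.2% in CON13. In WD it took 54.2% in WD6, 42.2% in WD7, 41.8% in WD8, 46.2% in WD9 and 62.2% in WD15. WD6 thus lay within the range of the control libraries, WD7, WD8 and WD9 below it and WD15 above it. The exact binomial 95% interval of WD15 (54.7% to 69.2%) did not reach those of WD7 (36.5% to 48.0%) and WD8 (36.5% to 47.2%), intervals that cover counting error and not the spread between camels. The log2 ratio of COL1A1 to COL3A1 averaged 0.10 ± 0.16 (SD, n = 5) over control libraries and -0.04 ± 0.51 (SD, n = 5) over WD libraries, a difference of -0.14 that is well inside the spread of the WD libraries.

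**Figure D2:**
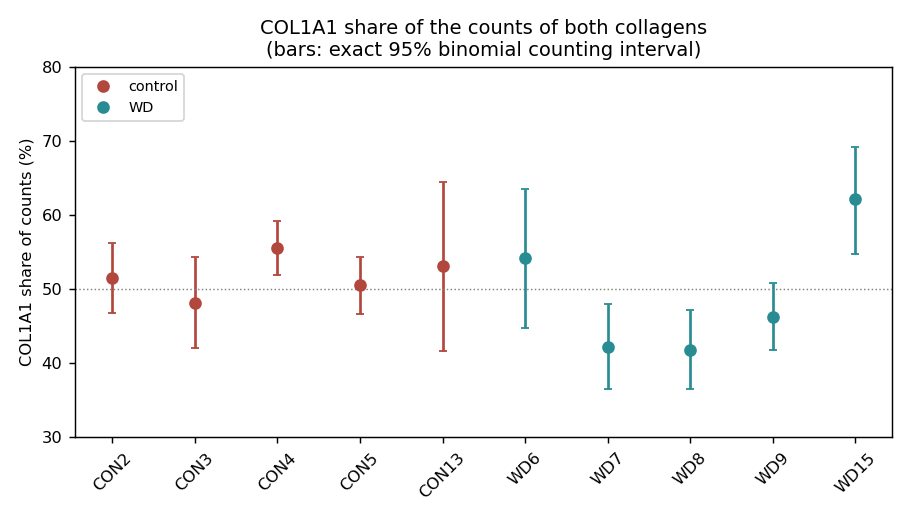
Share of COL1A1 in the summed counts of COL1A1 and COL3A1 in percent, 1 point per library with its exact 95% binomial counting interval, and a dotted line at equal counts. Control libraries run from 48.1% to 55.5% and WD libraries from 41.8% to 62.2%.

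Whether the members move together from animal to animal was asked within the groups. The choice of members rested on the contrast between groups, which depends on the spread of each gene within groups. It did not use how members vary together. Each library's log2 CPM was expressed as its deviation from the mean of its own group, and p-values came from exact two-sided permutations of the libraries within groups (14400 arrangements), adjusted over 15 relations. COL1A1 and COL3A1 gave a Pearson r of 0.31 over 10 libraries (permutation p = 0.424, adjusted p = 0.706) and a Spearman rho of 0.44 (permutation p = 0.233, adjusted p = 0.700). Without CON3 and WD7, whose COL1A1 deviations were farthest from the median deviation, r was 0.08, whereas without WD15 it was 0.68 (permutation p = 0.0597). In the control libraries both collagens were lowest in CON3. In WD, COL1A1 was highest in WD6 and lowest in WD7, whereas COL3A1 was highest in WD8 and lowest in WD15.

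ADAMTS2 did not track COL1A1 detectably, with r = 0.01 (permutation p = 0.982, adjusted p = 0.982) and rho = 0.05 (permutation p = 0.897, adjusted p = 0.975). Without CON3 and WD7 this r was 0.34, and without the shallow libraries CON13 and WD6 it was -0.57 (permutation p = 0.148). For ADAMTS2 and COL3A1 r was 0.33 (permutation p = 0.394, adjusted p = 0.706) and rho was 0.13 (permutation p = 0.749, adjusted p = 0.936), and r was -0.02 without WD8 and WD15. WD15 had the lowest WD level of both COL3A1 and ADAMTS2, and this relation rested on it. No pair of members therefore showed covariation past the threshold with 10 libraries, which does not show that they vary independently.

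**Figure D3:**
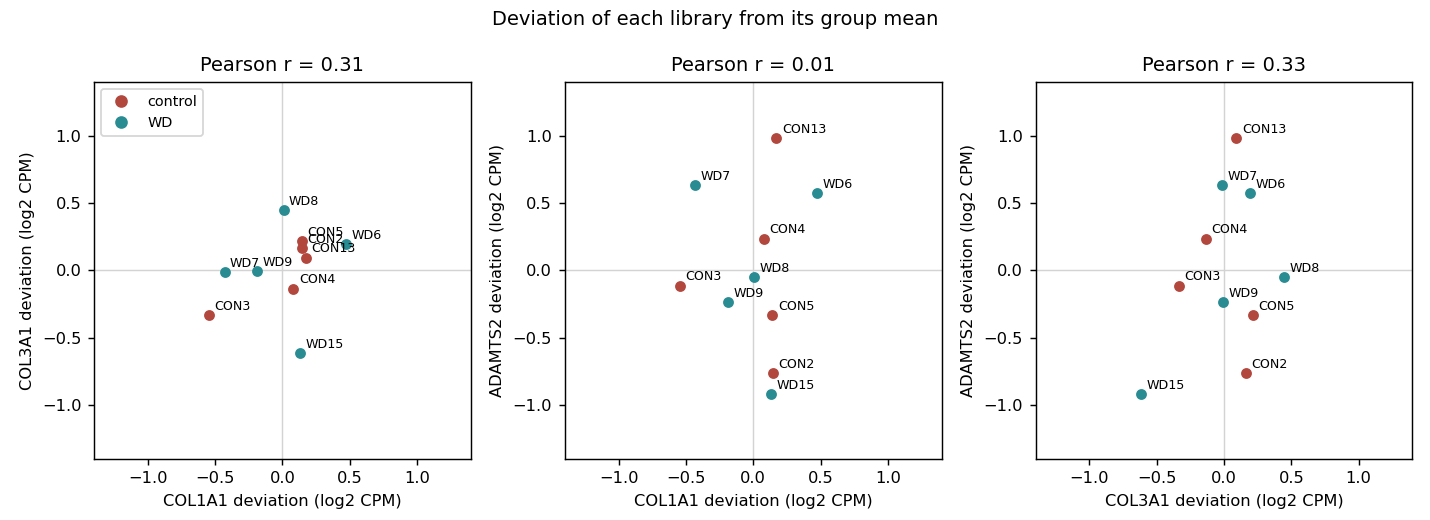
Deviation of each library from its group mean in log2 CPM, for COL1A1 against COL3A1, COL1A1 against ADAMTS2 and COL3A1 against ADAMTS2, with control libraries in red and WD libraries in turquoise. The clouds are loose, with r of 0.31, 0.01 and 0.33, and CON13 and WD15 lie at the ends of the ADAMTS2 axis.

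Across 12753 genes with a mean of at least 20 counts, the within-group r of COL3A1 with COL1A1 ranked 2677 among r values with COL1A1, in the top 21.0%, and 1555 among those with COL3A1, in the top 12.2%. Of the 3008 of these genes with a symbol, those most like the collagens by the mean r with COL1A1 and COL3A1 over the 10 libraries included VRK3, ZBED9, CREB5, ZIM2, ZNF45, PTGDS, GPR161, BMP7 and MTERF4. The mean r ran from 0.75 for VRK3 to 0.64 for MTERF4. PTGDS, the gene for prostaglandin D synthase that is strongly expressed in the leptomeninges, had r = 0.82 with COL1A1 and 0.48 with COL3A1. BMP7, a secreted growth factor, had r = 0.80 and 0.49. Deviations of these genes share the libraries and their depth with those of the collagens, and none of those named was called between WD and control, with LFCs from -0.58 for BMP7 to 0.55 for GPR161.

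Other genes that make, cut, bind and degrade collagen were counted where the study's catalogue of gene classes pairs them with a symbol, which leaves out P4HB and others described further on. The 9 lists of such genes held, beside the members, 50 such genes, of which 45 had enough counts to be tested. The lists were covered only in part. Of 11 fibrillar collagens listed only COL2A1 was left beside the members, as COL1A2, COL5A1, COL5A2 and others had no paired ID. Of 27 genes listed for collagen folding, modification and cross-linking, 3 were counted. None of the 45 was called in either direction by edgeR, against 0.499% of all genes tested, and none by DESeq2. At an unadjusted p under 0.05 there were 5 by edgeR, FAP, MMP2, TIMP2, TGFB3 and TGFB1, or 11.1%, a share near the 9.31% of all genes tested. Of the 45 LFCs 25 were below 0, or 55.6%, against 48.1% over all genes tested, and their median was -0.01, against 0.02.

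Among the relatives of the members, COL2A1, the chain of cartilage type II collagen, had an LFC of -0.01 (SE 0.462) at 8.96 CPM in control and 8.73 CPM in WD. ADAMTS3 and ADAMTS14 are the other procollagen N-proteinases. ADAMTS14 measured 4.51 CPM ± 1.99 (SD, n = 5) with water and 7.33 CPM ± 3.42 (SD, n = 5) without, an LFC of 0.63 (SE 0.399, edgeR adjusted p = 0.680). ADAMTS3 measured 4.43 CPM ± 3.80 (SD, n = 5) and 2.27 CPM ± 1.45 (SD, n = 5), an LFC of -0.72 (SE 0.675, edgeR adjusted p = 0.808). BMP1, which removes the C-terminal propeptide, had -0.49 (SE 0.314, edgeR adjusted p = 0.684). The groups overlapped for these 4 genes. Whether ADAMTS2 differed more than its paralogues was not tested, as ADAMTS2 was picked for its difference.

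Among enzymes that break collagen down, 6 genes were tested. FAP, a serine protease of activated fibroblasts, had the lowest LFC of -1.73 (SE 0.611, edgeR adjusted p = 0.339), on 137 counts in all 10 libraries. FAP ran from 1.38 to 11.96 CPM in control and from 0.63 to 2.37 CPM in WD, so the groups overlapped. MMP2, a gelatinase, had -0.59 (SE 0.207, edgeR adjusted p = 0.329), and the cysteine protease CTSK the highest value of 0.42 (SE 0.239, edgeR adjusted p = 0.635). Of the 4 metalloproteinase inhibitors, TIMP2 was lower in each WD library (94.6 to 135 CPM) than in each control library (144 to 166 CPM), with an LFC of -0.39 (SE 0.155) that was not called (edgeR adjusted p = 0.419). TIMP1 had the lowest LFC of the inhibitors, -0.42, and TIMP4 the highest, 0.06.

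Of 8 collagen receptors, 5 had an LFC below 0, and the extremes were the integrin subunits ITGA2 at -0.91 (SE 0.471) and ITGA1 at 0.50 (SE 0.258). The pairing of an ID with ITGA10 is uncertain. In the TGF-beta pathway, the best known inducer of collagen genes, TGFB3 had -0.70 (SE 0.299, edgeR adjusted p = 0.474) and TGFB1 0.60 (SE 0.277, edgeR adjusted p = 0.531), so the ligands lay on either side of 0. The 9 transcription factors known to act on collagen promoters lay between -0.27 for CREB3L1 and 0.22 for NFYB. Of the cross-linking enzymes, LOXL2 had -0.47 (SE 0.653) and TGM2 0.00 (SE 0.271). Of the other matrix proteins, FN1 (fibronectin) had -0.27 (SE 0.240) and COL4A1, a basement membrane collagen, 0.32 (SE 0.206).

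**Figure D4:**
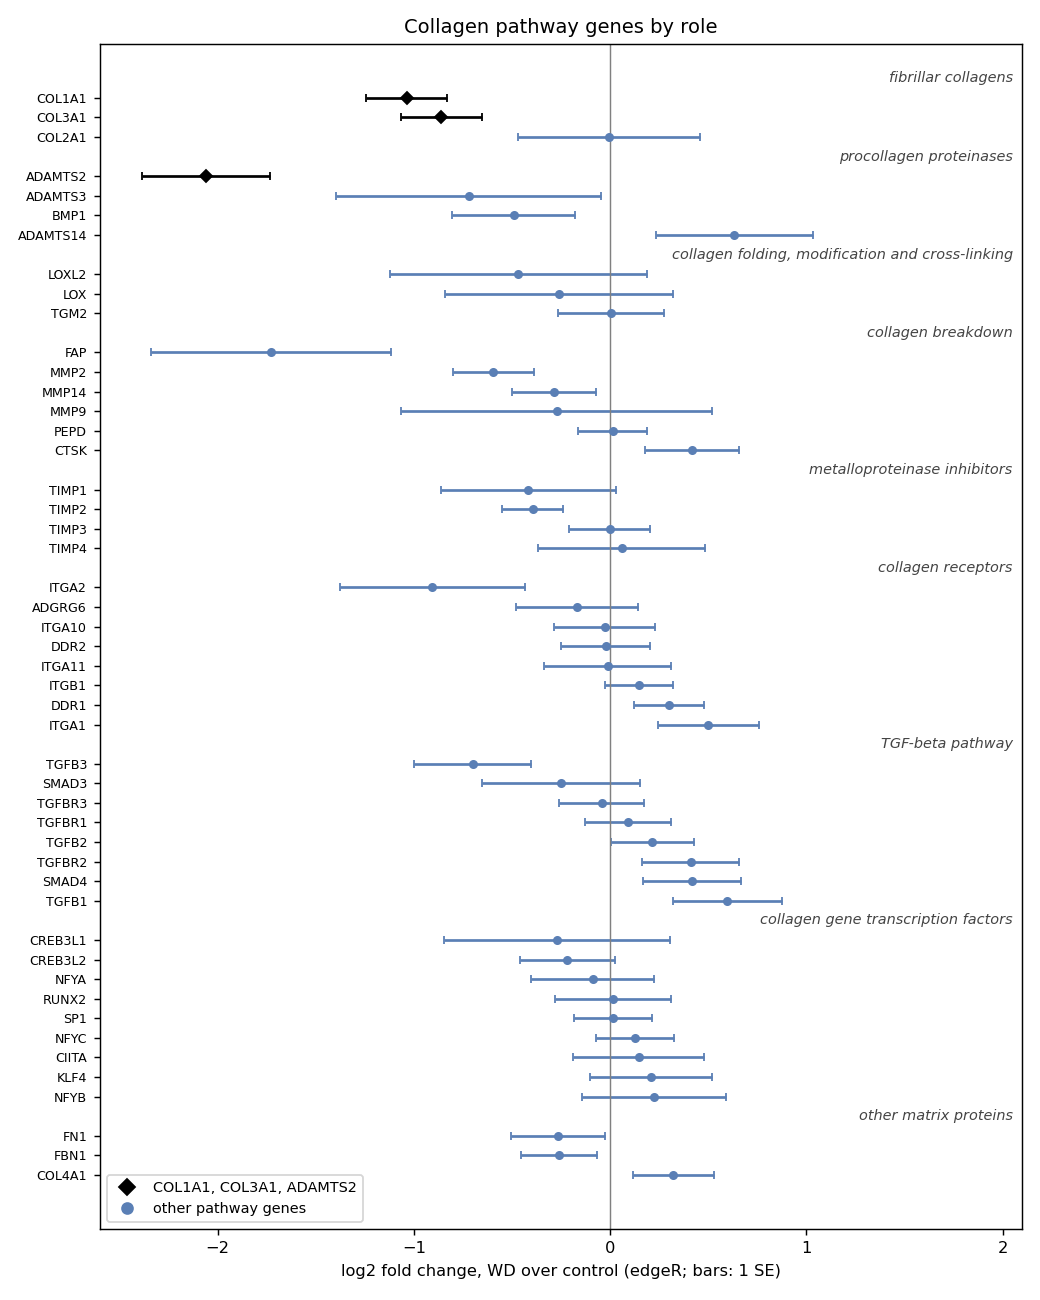
Log2 fold change of WD over control with 1 SE for the 48 tested genes of the collagen lists that were paired through the catalogue, grouped by role. Genes paired only through the shortened table, such as P4HB, are not shown. Black diamonds are COL1A1, COL3A1 and ADAMTS2 and blue circles the other 45 genes paired through the catalogue, none of which was called.

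Further pathway genes were paired with a symbol only through a shortened table ordered by p-value, so they give values but no count. In contrast to the collagens, P4HB, the beta subunit of prolyl 4-hydroxylase and a protein disulphide isomerase of the endoplasmic reticulum, was higher in WD. P4HB measured 93.1, 79.5, 87.6, 98.5 and 58.6 CPM in CON2, CON3, CON4, CON5 and CON13, and 144, 165, 120, 167 and 143 CPM in WD6, WD7, WD8, WD9 and WD15. P4HB rose with an LFC of 0.81 (SE 0.172, edgeR adjusted p = 0.0393), 1 of 39 genes called higher, or 0.27% of those tested. The groups did not overlap, which held for 1.34% of tested genes in this direction. PPIB, a prolyl isomerase that works on procollagen and other proteins in the same compartment, went from 64.5 CPM ± 15.6 (SD, n = 5) to 116 CPM ± 22.9 (SD, n = 5), an LFC of 0.82 (SE 0.197, edgeR adjusted p = 0.0857; DESeq2 adjusted p = 0.0055), and its groups did not overlap. P4HA1, P4HA3, PLOD3 and SEC24D, all with roles in procollagen modification or export, had LFCs of 0.54, 0.84, 0.65 and 0.63, none called by edgeR or DESeq2.

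Matrix and smooth muscle genes from the same table had LFCs of either sign. Elastin (ELN) went from 25.7 CPM ± 8.40 (SD, n = 5) to 11.3 CPM ± 3.76 (SD, n = 5), an LFC of -1.15 (SE 0.281, edgeR adjusted p = 0.0975; DESeq2 adjusted p = 0.0181). COL6A3 had -0.97 (SE 0.283, edgeR adjusted p = 0.200), COL12A1 and TNC each had -0.58, and THBS2, a matricellular thrombospondin, had 0.75 (SE 0.234, edgeR adjusted p = 0.232). The smooth muscle genes MYH11 and ACTA2 had -1.12 (SE 0.340, edgeR adjusted p = 0.229) and -0.97 (SE 0.329, edgeR adjusted p = 0.304). MYH11 reached from 100 to 308 CPM in control and from 36.1 to 158 CPM in WD, and the groups overlapped. These genes were named after their values were seen.

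Markers of the cells that could hold the collagen RNA were read beside it. Of 21 fibroblast markers listed, 13 were paired through the catalogue and 10 tested, and none was called by edgeR or DESeq2. Of those tested, all but PRRX1, TBX18 and TBX15 also stand in the collagen lists above, so the readings share genes. An LFC below 0 was found for 9 of the 10, against 48.1% of all genes tested. Their median LFC was -0.26, from FAP at -1.73 to PRRX1, a mesenchymal transcription factor, at 0.36 (SE 0.485). Their summed level ran from 145 to 206 CPM in control (median 170) and from 114 to 174 CPM in WD (median 149). TWIST1, TWIST2 and OSR1 of this list had too few counts to test, and the defining markers LUM and DCN were not analysed here. Of 4 mural cell markers paired through the catalogue none was called by edgeR. DESeq2 called 1 of them (HEYL), and it called 1.27% of all genes it tested. Of these 4, 3 were below 0, as were 48.1% of all genes tested, with a median of -0.36. Their summed levels ran from 61.0 to 74.2 CPM in control and from 42.6 to 67.3 CPM in WD. MYH11 and ACTA2 (above) and CSPG4, at -0.55 (SE 0.257), are also on the mural list. They were paired only through the shortened table and are not counted. HEYL, a Notch target of vascular smooth muscle, had an LFC of -1.16 (SE 0.286, edgeR adjusted p = 0.104; DESeq2 adjusted p = 0.0351). PDGFRB, the pericyte growth factor receptor and highest LFC of this list, was at 36.9 CPM ± 2.09 (SD, n = 5) and 42.2 CPM ± 9.45 (SD, n = 5), an LFC of 0.18 (SE 0.185, edgeR adjusted p = 0.826).

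Endothelial and microglial markers had median LFCs above 0 and oligodendrocyte markers a median below 0. Of 7 endothelial markers none was called by edgeR or DESeq2 and 1 was below 0, with a median LFC of 0.19, from TEK at -0.06 to SOX17 at 0.72, and summed levels of 244 to 434 CPM in control and 257 to 526 CPM in WD. Of 4 microglial markers paired through the catalogue none was called by either tool and none was below 0. Their median LFC was 0.78, from CSF1R at 0.62 to IRF8 at 0.98, with summed levels of 176 to 288 CPM and 208 to 646 CPM. Paired only through the shortened table and not counted were CX3CR1, P2RY12, AIF1, TREM2 and TYROBP. These microglial markers had LFCs of 0.94, 0.70, 0.86, 0.80 and 1.16, none called by either tool. ENG of the endothelial list, paired in the same way, had 0.57. Of 6 oligodendrocyte markers 5 were below 0, with a median of -0.16, from OLIG1 at -0.31 to NKX2-2 at 0.21, summed levels of 94.7 to 254 CPM and 88.1 to 202 CPM, and none called by either tool. The summed levels of each of these lists overlapped between groups, and their part in the lower collagen values was not tested.

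**Figure D5:**
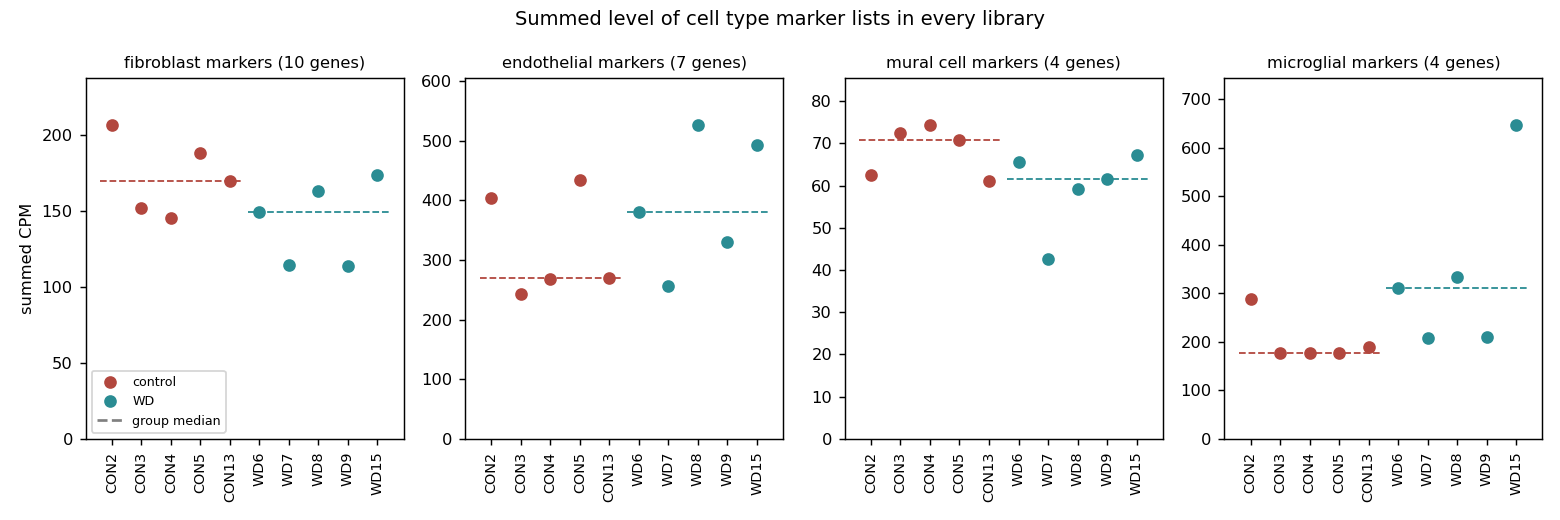
Summed CPM of the tested fibroblast (10 genes), endothelial (7), mural (4) and microglial (4) markers paired through the catalogue. Each point is a library, control in red and WD in turquoise, with dashed lines at the group medians. Control and WD libraries overlap in each panel, with the fibroblast median at 170 CPM in control and 149 CPM in WD.

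Within groups, no relation of a member with the fibroblast, mural or endothelial markers or with depth passed the threshold. The microglial and oligodendrocyte lists were not tested in this way. The strongest relation was that of ADAMTS2 with the mean log2 CPM of the endothelial markers, r = -0.67 (permutation p = 0.0539, adjusted p = 0.706) and rho = -0.60 (permutation p = 0.0910, adjusted p = 0.700), and r was -0.56 without CON2 and CON5. With the fibroblast markers r was -0.06 for COL1A1, 0.35 for COL3A1 and -0.31 for ADAMTS2, with rho of 0.02, 0.50 and -0.20. With the mural markers r was 0.41, 0.05 and -0.23 in the same order, with rho of 0.25, 0.22 and -0.20. With the endothelial markers COL1A1 had r = 0.38 and rho = 0.28, and COL3A1 had r = 0.20 and rho = 0.48. With the log2 number of counts outside the dominant IDs r was -0.43, -0.08 and -0.48, with rho of -0.44, -0.03 and -0.22. Over these relations with markers and depth, other than that of ADAMTS2 with the endothelial list, permutation p ran from 0.194 to 0.903 for r and from 0.167 to 0.975 for rho, and the lowest adjusted p was 0.700. Leaving out the 2 libraries whose deviations in the marker or depth measure were farthest from the median deviation, r became -0.03, 0.03 and -0.34 for the fibroblast list, 0.13, -0.04 and 0.21 for the mural list, and 0.07, 0.30 and 0.47 for depth, where these libraries were CON13 and WD6.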

How the data were processed

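The authors removed adaptors with BBDuk, mapped reads to the Camdro2 assembly with STAR and counted read pairs per gene with featureCounts; the deposited table holds these raw counts for 22444 Ensembl IDs. The annotation release and strand setting are not given in the sources used here, so overlapping and antisense genes may share counts. The normalised table was not used. Symbols came from the study's supplementary gene tables, which gave 4316 IDs a symbol; one of these tables is held only in shortened form.

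WD was compared with control in edgeR 4.0.16 (R 4.3.3) with filterByExpr, TMM scaling and a robust quasi-likelihood fit, which left 14432 genes. p-values were adjusted by Benjamini-Hochberg over all of them, with a threshold of 0.05. DESeq2 1.42.0, the study's method, was an alternative. Log2 CPM used a prior count of 0.5. Correlations used numpy 2.4.6 and scipy 1.17.1, and scripts were tested on simulated data. A test planned for the ratio of the collagens is not given because the same contrast chose the members.

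The members and lists were chosen with earlier results of these data known. Named were the members, COL2A1, ADAMTS3, ADAMTS14, BMP1, P4HB, any list gene called, the highest and lowest LFC of a list and the 10 genes most like the collagens, of which 1 is not reported here. MMP2 and TIMP2 were added for a p under 0.05, SIM1 and PDYN as a check of the tissue, and genes of the shortened table after their values were seen. Each library is 1 camel, and no library repeated another (lowest chi-square per degree of freedom within a group, 8.62). No gene of the astrocyte list could be counted. Of the magnocellular list 4 genes were tested and 2 called higher, as were 0.27% of all genes tested.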

Additional observations from a re-analysis of the deposited data

Results flagged for a closer look

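In groups of 5 libraries, 1 value lay far from the other 4 (Dixon's criterion at 95%) in 8 of 92 groups examined, where chance gives about 1 in 20. Among the members, COL1A1 was at 30.5 CPM in CON3, with the next control library at 47.2 CPM. TIMP4 was at 5.22 CPM in WD8, with the next WD library at 2.85 CPM. In WD6, CREB3L1 was at 13.3 CPM and the endothelial marker SOX17 at 9.02 CPM, and in both the next WD library was at 3.70 CPM. In CON2, the microglial marker CSF1R was at 153 CPM with the next control library at 105 CPM, OLIG1 was at 22.2 CPM with the next at 13.01 CPM, and the summed microglial markers were at 288 CPM with the next at 190 CPM. The summed microglial markers reached 646 CPM in WD15, with the next WD library at 334 CPM, and WD15 also had the lowest COL3A1 and ADAMTS2 levels.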

How the results depend on the processing

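No paired analysis was possible because control and WD libraries share no replicate number. The LFCs of the members kept their sign in each alternative. With 1 library left out they ran from -1.17 to -0.95 for COL1A1, -1.01 to -0.73 for COL3A1 and -2.28 to -1.82 for ADAMTS2. The number of genes called was 72, 209 with DESeq2 and 224 with the depth group as a covariate, and 40 to 102 with 1 library left out (40 without CON3, 42 without CON5); the cause was not tested. COL3A1, not called in the edgeR fit, was called by DESeq2 and with the depth group. Among collagen pathway genes paired through the study's catalogue, which P4HB, PPIB and ELN are not, the count called was 0 in each alternative, 0 to 0 with 1 library left out. The log2 ratio of COL1A1 to COL3A1 differed by -0.14, by -0.30 as a difference in medians, and by -0.33 to -0.03 with 1 library left out. With 1 library left out, r ran from 0.06 (without CON3) to 0.68 (without WD15) for COL1A1 with COL3A1, from -0.25 to 0.27 for COL1A1 with ADAMTS2 and from -0.18 to 0.49 for COL3A1 with ADAMTS2. For COL1A1 with ADAMTS2, r turned to -0.0037 with DESeq2 size factors and to -0.57 (permutation p = 0.148) without CON13 and WD6. It also turned negative without CON3 (-0.05), CON4 (-0.0068), CON13 (-0.15), WD6 (-0.25) or WD9 (-0.03), and for COL3A1 with ADAMTS2 without WD15 (-0.18). Leaving out both CON13 and WD6 in the fits was chosen after seeing the data. Depth limits CON13 and WD6, where each member rests on 25 to 64 counts. The lowest count of a member was that of ADAMTS2 in WD15, at 20.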
